A study of Mus musculus with 9 samples.

Results

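Potassium channel genes of the mouse artery wall, taken as every gene whose name starts with Kcn in the deposited tables, are described here. This rule took 57 of the 17093 genes in at least 1 of the 3 tables, and 46 of the 57 are in all 3. They comprise pore-forming subunits, accessory subunits, electrically silent Kv subunits, the antisense transcript Kcnq1ot1 and the channel regulator Kcnrg. GENCODE release M21 holds 99 genes so named, 94 of them protein-coding. The other 42, among them Kcna4, Kcnd2, Kcnb2, Kcnn2, Kcnmb2 and Kcnip2, are not analysed here. The tables hold no gene with a mean normalised count under 9.22 over their 6 libraries.

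The 9 libraries, 3 per group, hold RNA of the femoral artery media (the smooth muscle layer) of C57BL/6 mice. A first group is the sham control, another was taken at day 14 after wire injury, and the third at day 14 after wire injury with VS-4718 treatment. VS-4718 inhibits focal adhesion kinase (FAK), an enzyme of cell attachment sites, and was given by gavage at 50 mg/kg in 2 daily doses for 2 weeks, and the vehicle was citrate buffer. Which mice got vehicle, and the age and sex of the mice, the labels do not say. All arteries had fat and adventitia dissected away, and their lumen was rinsed with TRIzol, which per the labels was meant to take off endothelial and immune cells. Since no label ties a library to an animal, the spread that p-values measure is that between libraries only, which may be technical.

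Potassium channels let potassium leave the smooth muscle cell, which holds its membrane negative, keeps voltage-gated calcium channels closed and so limits contraction. In contractile arterial smooth muscle the best known are the calcium-activated BK channel with its beta1 subunit, the Kv1, Kv2 and Kv7 voltage-gated channels, the KATP channel and the Kir2 inward rectifiers. Dividing smooth muscle cells are known to lose BK and gain the intermediate-conductance channel Kcnn4, and macrophages, lymphocytes, nerve and skeletal muscle have channel sets of their own.

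The libraries held 14676891 to 21248740 reads. Levels are normalised read counts on 1 scale for the 9 libraries, given with the SD over 3 libraries. Log2 fold changes, with their standard error (SE), and p-values come from limma within the deposited table of each comparison, with Benjamini-Hochberg adjustment over all genes tested and a threshold of 0.05. Contractile genes were present in every library: the summed level of 16 contractile genes lay between 684151 and 894400 in sham, 207051 and 232765 in injured, and 784981 and 799981 in inhibitor-treated libraries. Markers of other cells were also present. The sum of 15 macrophage markers was 7290 to 8509 in sham, 38247 to 58667 in injured and 8858 to 13550 in inhibitor-treated libraries. That of 12 endothelial markers was 27215 to 40844, 41365 to 54362 and 33947 to 34894. In each group 1 library was taken to stand apart. Injured 2 had a skeletal muscle sum (16 genes) of 603083 against 36624 and 68588, and sham 3 one of 40340 against 14861 and 17414. That of injured 2 exceeded its own contractile sum of 229828. Inhibitor-treated 3 had a hepatocyte sum (10 genes) of 28693 against 1472 and 2623. Inhibitor-treated 2 had a skeletal muscle sum of 47992 against 7248 and 15548 in its group. It was not counted among the libraries that stood apart. Erythroid markers (8 genes with a level) summed to 39104 to 90850 in the inhibitor-treated libraries and to 82.7 to 361 in the 6 others. In such bulk samples fewer cells of a type and less RNA per cell cannot be told apart.

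Potassium channel genes differed widely between injured and sham arteries and between inhibitor-treated and injured arteries, and little between inhibitor-treated and sham arteries. With injury, 17 of 52 tested members were higher and 15 lower. Of all 16278 genes 37.3% passed, 20.6% higher and 16.8% lower, against 61.5% of the members, 32.7% and 28.8%. The median absolute log2 fold change was 1.11 over the members and 0.42 over all genes, and the signed medians were 0.15 and -0.003. With quantile normalisation the split was 11 higher and 15 lower, and with scaling on ribosomal protein genes, which moved the median of all genes by -0.21, it was 11 and 14. Without injured 2 and sham 3 it was 13 and 14.

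Between inhibitor-treated and injured arteries, 17 of 56 tested members were higher and 17 lower, which is 60.7% of them. Of all 16901 genes 36.1% passed, 17.6% higher and 18.5% lower. The median absolute change was 1.03 over the members and 0.44 over all genes. The split was 18 higher and 11 lower with quantile normalisation. It was 19 and 10 with scaling on ribosomal protein genes, which moved the median of all genes by 0.35. This comparison shares its 3 injured libraries with the one before, so opposite signs in both are not independent, and the values are set side by side below. Without injured 2 and inhibitor-treated 3, the libraries that stood apart in it, 10 members were higher and 5 lower, over 2 libraries a group.

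Between inhibitor-treated and sham arteries only Kcna3 passed, higher with the inhibitor, of 48 tested members (2.08%). Of all 16166 genes 6.08% passed, 5.15% higher and 0.934% lower. The median absolute log2 fold change was 0.22 over the members and 0.16 over all genes. By that measure the members were not nearer to sham than genes at large. At an unadjusted p under 0.05 there were 15 of the 48 members and 3410 of the 16166 genes. DESeq2 on the recovered reads gave 2 members, 1 of them lower, and edgeR gave Kcna3 as the only member called higher. The authors' deposited table gave 2 of its 49 members higher and 1 lower, and called 1442 of its 16187 genes in all.

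**Figure D1:**
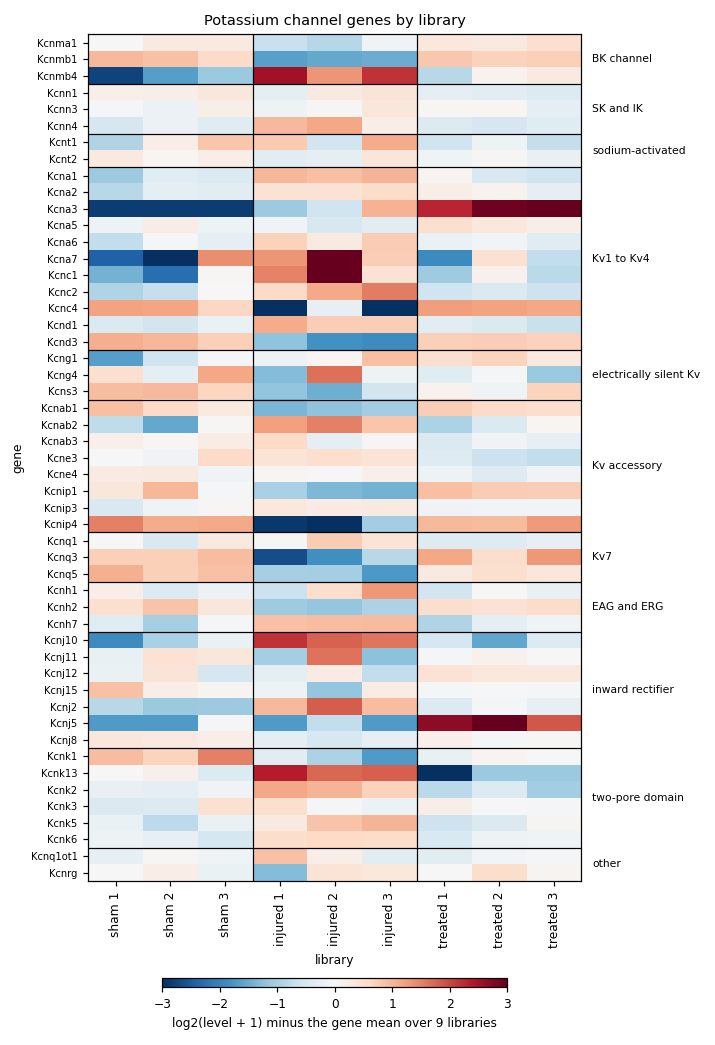
Level of potassium channel genes measured in all 9 libraries, as log2(normalised count + 1) minus the gene's mean over the 9 libraries (colour, limited to 3 either way), with genes in rows by channel class and libraries in columns by group (treated: injured with the inhibitor). Kcnmb1, Kcnd3 and Kcnip4 are blue in the 3 injured libraries, Kcnj10 and Kcnk13 are red there, and Kcna3 and Kcnj5 are red in the 3 treated libraries.

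Per kilobase of merged exon, Kcnmb1, the beta1 subunit that raises the calcium sensitivity of BK, had the highest level of the 53 measured members other than Kcnq1ot1 in sham arteries, 953 ± 126. Kcnh2, the pore subunit of the ERG1 channel, followed at 567 ± 110. Kcnab1 (414 ± 86.4), Kcnj8 (409 ± 21.3) and Kcne4 (376 ± 50.8) did not differ from each other beyond their spread. The order was another in injured arteries. Kcne4, which modulates Kv7 and Kv1 channels, was at the top at 357 ± 18.4, then Kcnj8 at 268 ± 23.7, while Kcnk3 (205 ± 51.0), Kcnmb1 (185 ± 9.93) and Kcnh2 (183 ± 13.6) lay within each other's spread. In inhibitor-treated arteries the members in places 1 to 7 stood in the same order as in sham, from Kcnmb1 at 909 ± 37.1 and Kcnh2 at 539 ± 23.2 to Kcnk3 at 195 ± 16.3. Merged exons count every annotated isoform, so the level of a gene with many isoforms, such as Kcnma1 at 45.4 ± 4.72 in sham, is understated.

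**Figure D2:**
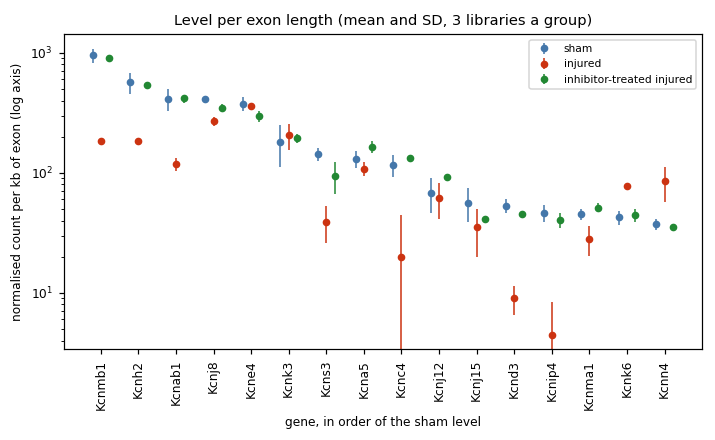
Normalised count per kilobase of merged exon (log axis, mean and SD of 3 libraries) for 16 members among those with the highest sham levels, in sham, injured and inhibitor-treated injured arteries. Error bars that reach below the axis end at its edge. Kcnmb1 leads in sham and treated arteries, and Kcne4 and Kcnj8 lead in injured arteries.

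The BK channel joins the Kcnma1 pore to a beta subunit, and these parts did not move alike. Kcnmb1 (ENSMUSG00000020155, GRCm38 chromosome 11, 33963013 to 33973641, plus strand) measured 4434, 4144 and 3407 in the sham libraries, 729, 785 and 811 in the injured and 3986, 3691 and 3753 in the inhibitor-treated ones. All injured libraries lay far below all others, and the other groups overlapped. Kcnmb1 fell with injury by 2.36 ± 0.13 on the log2 scale (limma adjusted p = 1.37e-05), was higher with the inhibitor than in injured arteries by 2.30 ± 0.09 (adjusted p = 2.5e-05), and was at -0.05 ± 0.10 against sham. Kcnma1 (chromosome 14, 23289431 to 24014491), the pore, measured 678, 820 and 814 in sham, 428, 371 and 626 in injured and 845, 813 and 952 in treated libraries. Its fall of 0.73 ± 0.20 (adjusted p = 0.0185) was smaller, and it did not pass without injured 2 (-0.57), sham 2 (-0.69) or sham 3 (-0.69). With the inhibitor Kcnma1 was higher than in injured arteries by 0.91 ± 0.20 (adjusted p = 0.0102). The ratio of Kcnmb1 to Kcnma1 counts was 6.54, 5.05 and 4.19 in sham, 1.70, 2.11 and 1.29 in injured and 4.71, 4.54 and 3.94 in treated libraries. Every injured library thus held fewer beta1 counts per pore count than any other library, which is a ratio of RNA counts and not of subunits in channels.

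Kcnmb4, the beta4 subunit best known from neurons, did the reverse at a low level. It had 3 reads over the sham libraries and 84 over the injured ones, a ratio of 25.4 (95% counting interval 8.39 to 125), and 18 over the treated ones. Kcnmb4 rose with injury by 3.82 ± 0.62 (adjusted p = 0.00172) and was lower with the inhibitor by 2.16 ± 0.52 (log2 fold change -2.16, adjusted p = 0.0156). The latter did not pass without injured 1 (-1.90). Annotated antisense transcripts cover 10.7% and 20.8% of its exons, and reads of the 2 strands cannot be told apart without stranded counting. Kcnmb1 has the steepest and best measured fall with injury of the BK genes, so its promoter is shown, 300 bases around the annotated start from RefSeq (GRCm38.p6, chr11:33962763-33963062, plus strand), in lower case because neither motif searched is in it:
Kcnmb1: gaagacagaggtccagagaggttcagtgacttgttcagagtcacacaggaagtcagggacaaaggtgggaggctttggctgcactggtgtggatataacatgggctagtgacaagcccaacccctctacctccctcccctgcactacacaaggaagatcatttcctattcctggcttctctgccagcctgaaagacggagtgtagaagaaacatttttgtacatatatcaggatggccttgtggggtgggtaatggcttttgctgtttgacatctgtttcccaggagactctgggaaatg
The CArG box, the site of serum response factor that many contractile genes carry, and the AP-1 motif TGANTCA, which reads the same on both strands, were searched on both strands. Of the 57 members 41 had promoters of this length in the table. No member's promoter held a CArG box, against 1.81% of all 27025 genes, and 4 (9.76%) held AP-1, against 8.97%. Counted by promoter, as some genes have several, AP-1 was in 6.67% of 60 against 7.81% of 32851. No match says only that these letters are not in these windows. Kcnmb1 lies inside the span of Kcnip1 on the opposite strand (33629339 to 33993152), and both fell with injury.

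**Figure D3:**
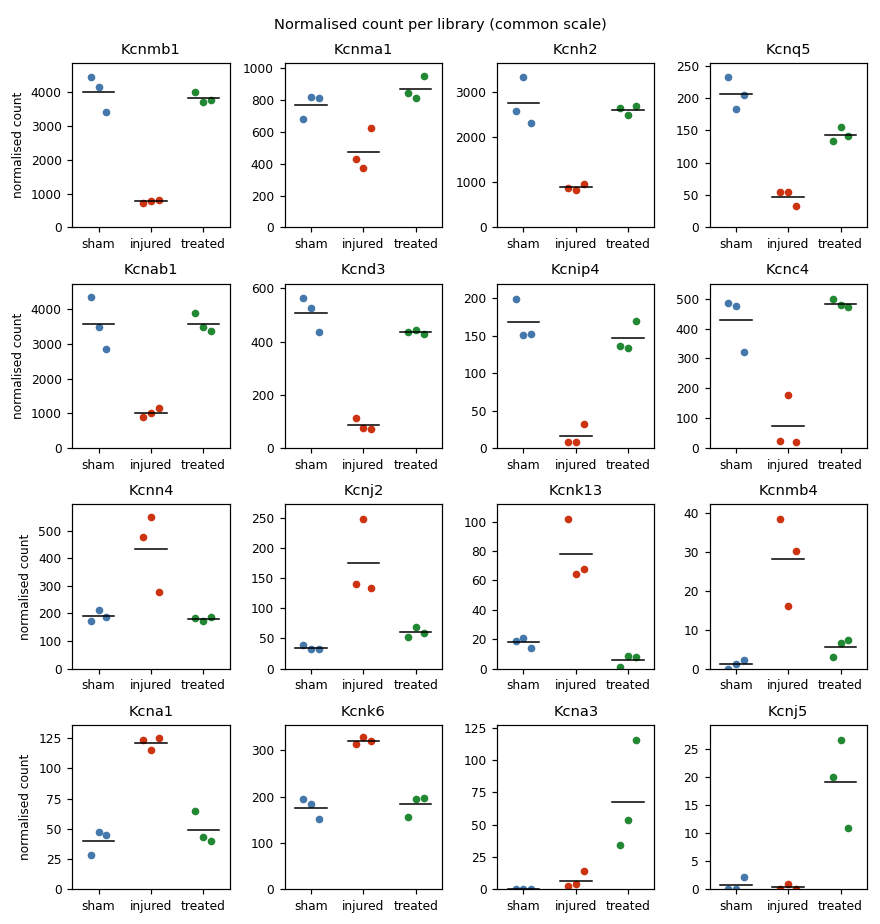
Normalised count per library (linear axes from 0, points are libraries, bars are group means) for 16 members in sham, injured and inhibitor-treated injured arteries. Kcnmb1 is at 729 to 811 in injured and 3407 or more in all other libraries, and Kcnk6 is at 314 or more in injured and 198 or less in all others.

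Kv7 channels are low-threshold voltage-gated channels, known from arterial smooth muscle and neurons. Kcnq5, an arterial subunit, and Kcnq3 fell with injury, and Kcnq1 did not pass. Kcnq5 measured 232, 183 and 204, then 55.0, 54.2 and 32.7, then 134, 154 and 141, so that the 3 groups did not overlap and the treated libraries stood between. Its changes were -2.14 ± 0.25 and 1.62 ± 0.24, and against sham it was at -0.51 ± 0.13, which did not pass (adjusted p = 0.0629), though it passed with quantile normalisation (-0.62). Kcnq3, the neuronal M-channel subunit, was at 75.6 ± 6.34, 13.8 ± 9.30 and 89.9 ± 23.5. It fell with injury by 2.56 ± 0.46 and was 2.78 ± 0.49 higher with the inhibitor. Kcnq1 (41.3 ± 10.4, 57.3 ± 14.6 and 33.3 ± 1.88) overlaps the antisense Kcnq1ot1 (1047 ± 102, 1436 ± 602 and 1025 ± 111), and neither passed in any of the 3 comparisons. Without injured 3 Kcnq1ot1 passed in both comparisons with injured arteries (0.65 and -0.69), and without injured 1 Kcnq1 passed against the inhibitor (-0.92).

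Among Kv1 channels, which set resting tone as tetramers of mixed subunits, the subunits best known from axons, Kcna1, Kcna2 and Kcna6, rose with injury and the smooth muscle subunit Kcna5 did not pass. Kcna5 measured 339, 440 and 341 in sham, 353, 271 and 305 in injured and 526, 468 and 425 in treated libraries. It did not pass with injury (-0.28 ± 0.16, adjusted p = 0.221) and was higher with the inhibitor than in injured arteries by 0.62 ± 0.14 (adjusted p = 0.0137), a call lost without treated 1 (0.54) or 2 (0.62). Kcna1 measured 28.1, 47.0 and 44.7, then 123, 115 and 125, then 64.7, 43.2 and 40.1. The injured libraries were all above the others, with a rise of 1.60 ± 0.25 (adjusted p = 0.00152) and a log2 fold change of -1.31 ± 0.23 with the inhibitor. The count of Kcna5 per count of Kcna1 was 9.69 ± 2.24 in sham, 2.55 ± 0.27 in injured and 9.86 ± 1.50 in treated arteries. Kcna2 rose from 235 ± 46.6 to 450 ± 23.4, by 0.95 ± 0.17, and Kcna6 from 76.1 ± 17.5 to 145 ± 25.5, by 0.92 ± 0.24. The rise of Kcna6 did not pass without sham 1 (0.73), and antisense Gm26673 covers 39.6% of its exons. With the inhibitor Kcna2 stood at -0.47 ± 0.15 and Kcna6 at -0.79 ± 0.20 against injured arteries. The Kcna2 call was lost when any of the 6 libraries was left out (-0.33 to -0.56), and that of Kcna6 without treated 1 (-0.80), treated 3 (-0.71) or injured 1 (-0.73). Kcna5, Kcna1 and Kcna6 are neighbours on chromosome 6, from 126532551 to 126740674. Markers of Schwann cells and nerve moved beside these genes: of 14 tested, 8 rose and 2 fell with injury, and 6 were lower and 2 higher with the inhibitor. Their summed level was 13531 to 13721 in sham, 9238 to 10879 in injured and 11546 to 13611 in treated libraries. Their part in the Kcna changes was not tested.

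Kcna3, the Kv1.3 pore known from lymphocytes, macrophages and dividing smooth muscle cells, had a pattern of its own. It had no read in any sham library, 2.39, 3.80 and 13.8 normalised counts in injured and 34.2, 53.3 and 116 in treated libraries. The groups did not overlap, and the treated group as a whole, with 221 reads, was at least 62.9-fold above a floor of 3 reads over the sham group. The injured group, with 22 reads, most of them in injured 3, was as a whole at least 6.64-fold above that floor. Kcna3 was higher with the inhibitor than in injured arteries by 3.30 ± 0.68 (adjusted p = 0.00837; 3.93 without injured 3) and than in sham (adjusted p = 0.000982). The first call was lost without both injured 2 and treated 3, the libraries that stood apart (2.64), over 2 libraries a group. Kcnj5, a G protein-gated inward rectifier known from heart, was also high in the treated libraries alone, with 62 reads over them against 1 over the injured and 2 over the sham libraries. It was higher than in injured arteries by 3.98 ± 0.67 (adjusted p = 0.00365), and was not tested against sham because its mean was under 10. The 12 lymphocyte markers summed to 159 to 253 in sham, 2452 to 6387 in injured and 800 to 2810 in treated libraries. Of the 12, 10 passed as higher in treated than in sham arteries, and the B cell gene Ms4a1 was among the 2 that passed as higher than in injured ones. The order of libraries was not the same: treated 3 had the highest Kcna3 level and lymphocyte sum of its group, while injured 3 had the highest Kcna3 level and the lowest lymphocyte sum of its own. The small nuclear RNA Rn7sk was at 4.36 to 28.2 in the 6 other libraries and at 16255 to 27025 in the treated ones, where the erythroid markers were high too. The part of these differences between libraries in the Kcna3 and Kcnj5 levels was not tested.

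Of the Kv3 and Kv4 pores, Kcnc4 and Kcnd3 fell with injury and Kcnc1, Kcnc2 and Kcnd1 rose. Kcnd3 (Kv4.3; chromosome 3, 105452330 to 105674002), an A-type channel that opens briefly, measured 564, 527 and 435, then 114, 74.1 and 70.6, then 435, 444 and 427. Every injured library lay below every other. It fell by 2.58 ± 0.22 (adjusted p = 6.56e-05) and was 2.36 ± 0.20 higher with the inhibitor than in injured arteries (adjusted p = 0.000206). Kcnd1 (Kv4.1) went the other way, at 66.1 ± 8.43 in sham, 160 ± 25.8 in injured and 62.5 ± 7.11 in treated arteries, with changes of 1.25 ± 0.21 and -1.34 ± 0.19.

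Kcnc4 (Kv3.4; chromosome 3, 107438303 to 107459552) measured 485, 475 and 323 in sham, 22.7, 177 and 20.7 in injured and 500, 479 and 471 in treated libraries. The injured libraries lay below all others but were not alike, since injured 2, the library with the high skeletal muscle sum, held several times the count of the other 2. The fall was 3.23 ± 0.72 on the log2 scale (log2 fold change -3.23, adjusted p = 0.008) and 4.22 without injured 2 (-4.22). The difference with the inhibitor was 3.43 ± 0.74 (adjusted p = 0.0105), and 4.42 without it. Kcnc2 rose from 31.6 ± 11.5 to 97.8 ± 32.1, by 1.59 ± 0.35, and was at 29.6 ± 2.19 with the inhibitor (-1.64 ± 0.29).

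Several further members followed the skeletal muscle sum across the injured libraries. Kcna7, a muscle Kv1 subunit, measured 26.3, 262 and 17.2 in the injured libraries against 27.3 or less in all others. Kcnc1 measured 44.2, 172 and 20.7, against 2.35 to 16.5 in the sham and treated libraries. Kcnj11, the KATP pore of skeletal muscle and beta cells, measured 57.4, 363 and 49.1, and 99.3 to 159 in the other 6. In each, injured 2 was the highest library, as it was for Ckm (muscle creatine kinase), at 69870 against 7674 and 4051, and for Myh4 (a fast muscle myosin), at 162935 against 14187 and 10204. Of the 16 skeletal muscle markers 10 rose with injury and 1 fell, and their part in these levels was not tested beyond leaving out injured 2. Kcnc1 rose with injury by 2.99 ± 0.82 (adjusted p = 0.0213), but not without injured 2 (2.17), sham 1 (2.89) or sham 2 (2.47). Against the inhibitor it was at -2.37 ± 0.75 (adjusted p = 0.0446), lost without any library but injured 3 (-1.55 to -2.72, the former without injured 2). Kcna7 did not pass with injury (3.69 ± 1.35, adjusted p = 0.0626), and passed without injured 3 (4.43) or sham 3 (5.12). Against the inhibitor it did so without injured 3 (-3.70). Kcnj11 did not pass in any comparison with all libraries, and without injured 2 it fell with injury (-1.32) and was higher with the inhibitor (1.15). Kcng4, a silent Kv subunit, was likewise highest in injured 2, at 79.8 against 9.56 and 22.4, and did not pass. Kcnj2, given below, was also highest there among the injured libraries, at 249 against 140 and 134.

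**Figure D4:**
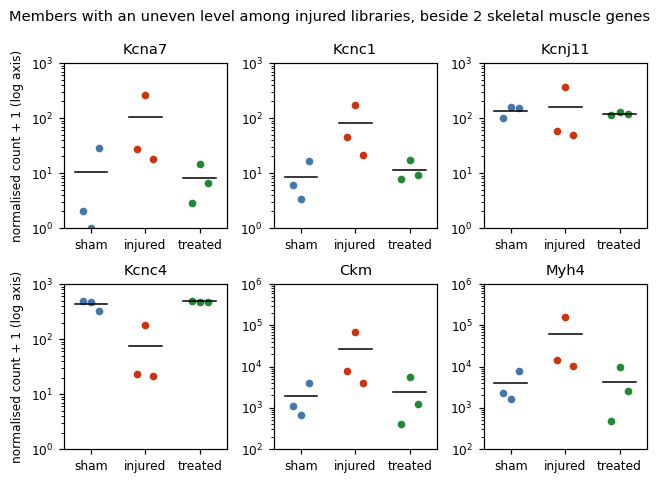
Normalised count + 1 per library (log axes, points are libraries, bars are group means) of 4 members and of the skeletal muscle genes Ckm and Myh4. Injured 2 is the highest injured library in all 6 panels, with 262 for Kcna7, 172 for Kcnc1, 363 for Kcnj11 and 177 for Kcnc4.

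Accessory subunits of Kv channels included some of the widest differences. KChIP proteins bind Kv4 channels and bring them to the membrane. Kcnip4 (chromosome 5, 48389502 to 49524907) measured 200, 152 and 153 in sham, 8.37, 7.60 and 32.7 in injured and 137, 133 and 169 in treated libraries. All injured libraries lay below all others. It fell by 3.59 ± 0.50 (adjusted p = 0.000778; -4.22 without injured 3) and was 3.40 ± 0.52 higher with the inhibitor (adjusted p = 0.00242; 4.04 without injured 3). Kcnip1 fell from 74.4 ± 28.1 to 21.7 ± 3.99, with a log2 fold change of -1.68 ± 0.33, and was 2.05 ± 0.24 higher with the inhibitor, at 92.1 ± 5.89. Kcnip3 (60.4 ± 10.5, 83.1 ± 1.63 and 64.2 ± 0.47) did not pass. Both Kcnip4 and Kcnip3 are among the 4 members with AP-1 letters near a start. That of Kcnip4, shown because its log2 fall is the steepest of all members, lies by an internal start (GRCm38.p6, chr5:49285610-49285909, minus strand), 1 of 2 in the table, with the site in capitals beginning at -82:
Kcnip4: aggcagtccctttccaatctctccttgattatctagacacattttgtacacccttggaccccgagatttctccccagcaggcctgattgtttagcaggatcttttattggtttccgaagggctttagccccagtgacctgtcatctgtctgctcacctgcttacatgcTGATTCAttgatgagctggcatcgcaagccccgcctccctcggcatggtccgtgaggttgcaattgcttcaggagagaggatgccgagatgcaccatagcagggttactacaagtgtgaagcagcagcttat

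The beta subunits that bind Kv1 channels split. Kcnab1 (chromosome 3, 65109384 to 65378223), the smooth muscle Kv beta1, measured 4334, 3486 and 2854 in sham, 897, 1016 and 1138 in injured and 3887, 3479 and 3361 in treated libraries. It fell by 1.80 ± 0.17 (adjusted p = 9.95e-05) and was 1.82 ± 0.12 higher with the inhibitor than in injured arteries (adjusted p = 8.15e-05). Kcnab2, Kv beta2, best known from nerve and immune cells, measured 53.2, 30.5 and 92.7, then 215, 261 and 162, then 46.6, 67.1 and 93.8. It rose by 1.94 ± 0.38 (adjusted p = 0.00448) and stood at -1.63 ± 0.29 with the inhibitor. Kcnab1 exceeded Kcnab2 by 30.8 to 114 times in the sham libraries, by 3.89 to 7.04 times in the injured and by 35.8 to 83.4 times in the treated ones, with no overlap between injured and other libraries. Kcnab3 was at 28.9 ± 1.77, 29.0 ± 9.49 and 21.6 ± 2.45 and did not pass. Kcne4, at 1000 ± 135 in sham, 948 ± 49.0 in injured and 783 ± 80.9 in treated arteries, passed in no comparison. Kcne3 (28.9 ± 8.06, 34.4 ± 1.49 and 16.4 ± 2.33) was lower with the inhibitor than in injured arteries (-1.03 ± 0.28, adjusted p = 0.0264), a call lost without any 1 library but injured 3 (-0.95 to -1.13). Kcns3, a silent subunit that forms channels only with other Kv subunits, measured 474, 496 and 389, then 110, 90.3 and 171, then 271, 230 and 399. Its fall of 1.91 ± 0.24 (adjusted p = 0.000445) left every injured library below every other, and with the inhibitor it was 1.29 ± 0.29 higher (adjusted p = 0.0129), lost without treated 3 (1.06). Against sham it was at -0.61 ± 0.20, and passed as lower without treated 3 (-0.84). The silent subunits Kcng1 (9.20 ± 5.09, 18.9 ± 8.28 and 20.9, 23.9 and 18.2 in the treated libraries) and Kcng2, tested between inhibitor-treated and injured arteries alone (17.4, 16.7 and 8.97 in injured, 5.94, 6.70 and 6.63 in treated libraries), did not pass.

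Of the Kcnh family, which holds the ERG and EAG channels, Kcnh2 (chromosome 5, 24319589 to 24351604) measured 2587, 3343 and 2317 in sham, 885, 823 and 954 in injured and 2645, 2485 and 2702 in treated libraries. Every injured library lay below every other. It fell by 1.62 ± 0.15 (adjusted p = 9.55e-05) and was 1.56 ± 0.09 higher with the inhibitor (adjusted p = 6.94e-05). Kcnh7 (ERG3), at 6.02, 3.52 and 7.64 in sham, 15.5, 16.2 and 16.4 in injured and 3.80, 6.43 and 7.28 in treated libraries, rose by 1.38 ± 0.44 (adjusted p = 0.04) and was at -1.35 ± 0.43 with the inhibitor (adjusted p = 0.0454). At so low a count its injury call was lost without any 1 library but sham 3 (1.12 to 1.43), and the other without any but treated 3 (-1.12 to -1.43). Kcnh1, an EAG pore at 26.4 ± 6.10, 44.0 ± 27.2 and 24.0 ± 4.76, did not pass, nor did Kcnh3, which was tested against sham alone (-0.16 ± 0.52).

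The KATP channel of arteries joins the Kcnj8 pore (Kir6.1) to the Abcc9 subunit (SUR2), opens when ATP is low and relaxes the vessel. Kcnj8 measured 1089, 1052 and 982 in sham, 715, 615 and 723 in injured and 960, 840 and 875 in treated libraries. The 3 groups did not overlap. It fell by 0.61 ± 0.11 (adjusted p = 0.00334) and was 0.39 ± 0.11 higher with the inhibitor (adjusted p = 0.0293), a call lost without treated 1 (0.33), treated 2 (0.43), treated 3 (0.40) or injured 2 (0.31). Abcc9 went from 6310 ± 278 to 2899 ± 795, a log2 fold change of -1.16 ± 0.18 (adjusted p = 0.00137), and stood at 5832 ± 263 with the inhibitor (1.04 ± 0.18, adjusted p = 0.00414). Counts of Abcc9 per count of Kcnj8 were 6.08 ± 0.54, 4.23 ± 1.02 and 6.56 ± 0.42.

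Kir2.1, encoded by Kcnj2 and known from endothelium, macrophages and small arteries, rose. It measured 39.1, 31.7 and 32.7 in sham, 140, 249 and 134 in injured and 52.3, 68.9 and 59.2 in treated libraries, 3 groups without overlap and with the treated ones in between. Injured 2, the library with the high skeletal muscle sum, held the highest count. The rise was 2.24 ± 0.28 (adjusted p = 0.000454), and 1.96 to 2.40 with each library left out in turn. The change with the inhibitor was -1.47 ± 0.27 (adjusted p = 0.00536). The difference from sham, 0.79 ± 0.21, did not pass (adjusted p = 0.069), and passed with scaling on ribosomal protein genes (0.91). Kcnj10, the glial Kir4.1, rose from 5.14 ± 3.38 to 39.6 ± 8.45, by 2.85 ± 0.50, and was at 5.57 ± 2.45 with the inhibitor (-2.70 ± 0.44). Kcnj12 (188 ± 61.9, 170 ± 56.9 and 252 ± 13.0), Kcnj15 (356 ± 113, 221 ± 95.9 and 260 ± 4.53) and Kcnj14 (-2.07 ± 0.70 with the inhibitor against injured arteries, its only comparison) did not pass with all libraries. Without injured 2 Kcnj12 passed against injured arteries (0.86), and without sham 2 against sham (0.72). Kcnj15 passed as lower with injury without injured 3 (-1.04), and Kcnj14 with the inhibitor without treated 1 (-2.69).

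Kcnn4, the intermediate-conductance calcium-activated channel of dividing smooth muscle cells, macrophages and red cells, measured 172, 214 and 188 in sham, 477, 548 and 277 in injured and 182, 172 and 188 in treated libraries. The injured libraries were all higher, and sham and treated overlapped. It rose by 1.12 ± 0.25 (adjusted p = 0.00826) and was at -1.20 ± 0.25 with the inhibitor (adjusted p = 0.00816). The small-conductance pores Kcnn1 (111 ± 7.74, 106 ± 25.3 and 74.8 ± 3.97) and Kcnn3 (122 ± 15.5, 130 ± 23.4 and 118 ± 15.1) did not pass with all libraries. Without injured 1 Kcnn1 was lower with the inhibitor than in injured arteries (-0.68). The sodium-activated pores Kcnt1 (75.0 ± 40.8, 99.3 ± 50.4 and 46.9 ± 10.5) and Kcnt2 (249.6 ± 20.2, 213.7 ± 60.3 and 205.1 ± 19.2) did not pass with all libraries, and Kcnrg (16.3 ± 2.32, 16.2 ± 8.84 and 19.1 ± 4.17) did not pass either. Kcnt1 did so with the inhibitor without injured 2 (-1.43), and Kcnt2 with injury without injured 3 (-0.48).

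Tandem-pore (K2P) channels carry background current. Of 6 tested, 4 rose with injury, 1 fell and Kcnk3 did not pass, while 20.6% of all genes rose and 16.8% fell. Kcnk13 (THIK-1), known from microglia and macrophages, measured 19.1, 21.1 and 14.2 in sham, 102, 64.6 and 68.0 in injured and 0.95, 8.27 and 8.19 in treated libraries. The treated libraries lay below sham as well. It rose by 2.03 ± 0.31 (adjusted p = 0.00115) and changed by -3.83 ± 0.65 with the inhibitor (adjusted p = 0.00368; -3.07 without treated 1), while the difference from sham, -1.77 ± 0.67, did not pass (adjusted p = 0.182; -1.02 without treated 1). Kcnk6 (TWIK-2), known from macrophages and the artery wall, measured 195, 183 and 151, then 314, 330 and 320, then 157, 195 and 198. It rose by 0.87 ± 0.15 (adjusted p = 0.00248) and was at -0.81 ± 0.14 with the inhibitor. Kcnk5 (TASK-2) rose from 31.9 ± 7.26 to 70.2 ± 17.8, by 1.10 ± 0.31, and was at -1.04 ± 0.30 with the inhibitor. Its first call was lost without injured 2 (1.03), injured 3 (0.95) or sham 2 (0.90), and the other without treated 1 (-0.89), treated 2 (-0.98), injured 2 (-0.97) or injured 3 (-0.89). Kcnk3 (TASK-1), acid-sensitive and at 719 ± 271, 815 ± 203 and 773 ± 64.7, passed in no comparison with all libraries. It was above sham with the inhibitor without sham 3 (0.47). Kcnk1 (TWIK-1) fell from 64.5 ± 20.3 to 15.9 ± 7.68, a log2 fold change of -2.02 ± 0.42 (adjusted p = 0.00574), and with the inhibitor, at 29.3 ± 3.31, did not pass (0.95 ± 0.42, adjusted p = 0.115).

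Kcnk2 (TREK-1), opened by stretch of the membrane, measured 23.1, 22.3 and 25.1 in sham, 62.2, 56.1 and 44.7 in injured and 15.2, 20.2 and 12.7 in treated libraries. The 3 groups did not overlap. It rose by 1.16 ± 0.27 (adjusted p = 0.0102) and changed by -1.71 ± 0.30 with the inhibitor (adjusted p = 0.00421). It is the only member with AP-1 letters that rose with injury, and its promoter is shown for that (GRCm38.p6, chr1:189344143-189344442, minus strand), 1 of 4 in the table, with the site in capitals beginning at -126:
Kcnk2: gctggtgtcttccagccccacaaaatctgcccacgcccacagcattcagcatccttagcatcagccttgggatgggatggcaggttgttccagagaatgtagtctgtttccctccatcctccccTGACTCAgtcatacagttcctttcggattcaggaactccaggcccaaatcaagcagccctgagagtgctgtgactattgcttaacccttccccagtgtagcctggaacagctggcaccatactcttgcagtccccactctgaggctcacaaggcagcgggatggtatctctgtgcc
The promoters of the 13 members that rose and had one had a median GC content of 63.7%, those of the 12 that fell 55.4%, and those of 14 others 56.0%, against 52.8% over all genes of the table. This is a description with no test.

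**Figure D5:**
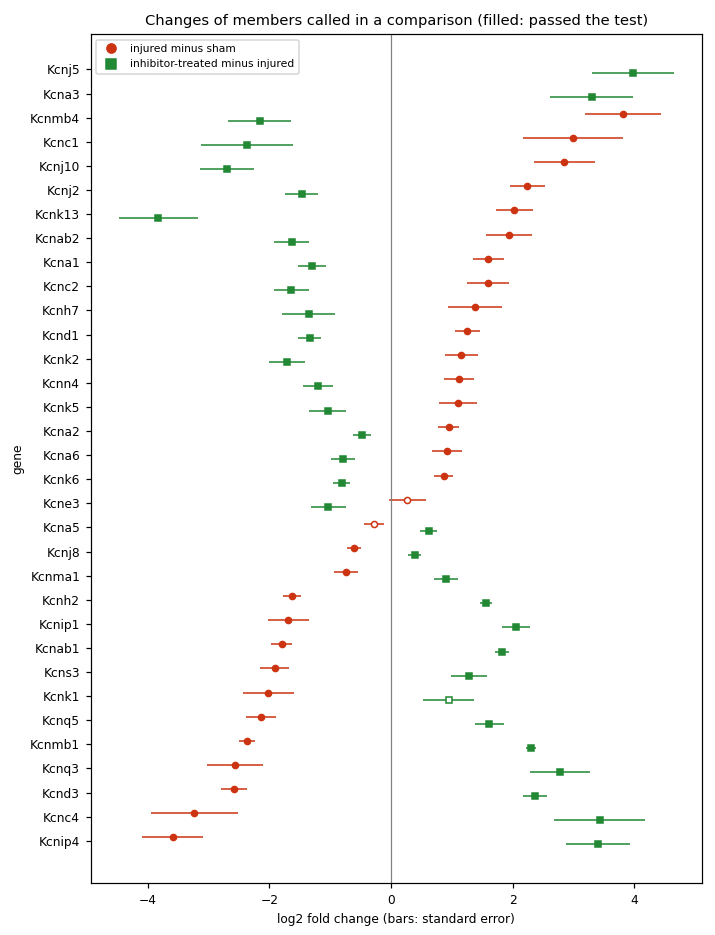
Log2 fold changes (x axis, bars are standard errors) of members that passed in injured against sham (circles) or inhibitor-treated against injured arteries (squares), filled where they passed. The 2 comparisons share the injured libraries. Kcnip4 and Kcnc4 have the lowest values with injury, -3.59 and -3.23, and Kcnmb4 the highest, 3.82.

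Macrophage markers, of which 13 of 15 rose with injury and 14 of 15 were lower with the inhibitor than in injured arteries, moved beside the rise of Kcnn4, Kcnj2, Kcnk6, Kcnk13 and Kcnab2, all known from such cells. Kcna3, also known from macrophages, did not follow them, at 2.39 to 13.8 in injured and 34.2 to 116 in treated libraries. In treated libraries Kcnk13 (0.95 to 8.27) lay below sham (14.2 to 21.1), while the macrophage sum (8858 to 13550) lay above sham (7290 to 8509). Abundant markers weigh most in that sum. The mean log2 level of the 15 markers overlapped, at 7.43 to 8.10 in treated and 7.50 to 7.66 in sham libraries. Only Ccr2 and Lyz2 of the 15 passed as higher than sham. The macrophage gene Adgre1 was at 95.1 to 116 in sham, 1108 to 1562 in injured and 91.3 to 218 in treated libraries. Of the 12 endothelial markers 9 rose with injury and 9 were lower with the inhibitor than in injured arteries. The part of macrophage, endothelial and skeletal muscle RNA in these rises was not tested. Contractile genes moved beside the falls. Over the 16 of them the mean log2 level was 1.46 lower in injured than in sham libraries (-1.46), and 13 passed as lower. Set against that mean, Kcnip4 was a further 2.13 lower (-2.13), Kcnc4 1.77 (-1.77), Kcnd3 1.12 (-1.12), Kcnq3 1.10 (-1.10) and Kcnmb1 0.90 (-0.90). Kcnh2 (-0.16) moved nearly with it, and Kcnma1 (0.73) and Kcnj8 (0.85) fell less than it. These offsets carry no test, and they depend on the reference. Of the 16 contractile genes Casq2 passed as higher with injury, and the median log2 fold change over the 16 was -1.87, lower than the mean.

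Of 17 tested partners of potassium channels, a list of auxiliary proteins and anchors, 2 rose and 3 fell with injury (median log2 fold change -0.16). Dpp6, which joins Kv4 channels, went from 2.31 ± 2.42 to 20.4 ± 6.18 and Lrrc55, a BK gamma subunit, from 9.65 ± 7.66 to 49.0 ± 15.2, on the scale of that comparison's table. Abcc9, the anchor Akap5 and the channel partner Amigo1 fell, the last by 0.78 ± 0.16 (log2 fold change -0.78). With the inhibitor Abcc9, Akap7 and Amigo1 were higher than in injured arteries and Dpp6 and Lrrc55 lower. Of the genes of calcium entry, stores and depolarisation, which potassium channels oppose, 7 of 40 rose and 15 fell with injury (median -0.10). Beside both lists, 20.6% of all genes rose and 16.8% fell with injury. Cacna1c, the L-type calcium channel, changed by -0.89 ± 0.20 and Ryr2, the store channel whose sparks open BK, by -1.52 ± 0.22. Trpc6, a cation channel, rose by 2.30 ± 0.28 and Orai2, a store-operated channel, by 2.08 ± 0.20. With the inhibitor 17 of 41 were higher and 8 lower than in injured arteries, and Clcn3 and Trpc6 alone of 40 passed against sham, both higher. Over all genes 17.6% were higher and 18.5% lower than in injured arteries, and 6.08% passed against sham.

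Between inhibitor-treated and sham arteries the members nearest to the threshold, other than Kcna3, were Kcnk1 (-1.06 ± 0.27, adjusted p = 0.0593), Kcnq5, Kcnn1 (-0.55 ± 0.14, adjusted p = 0.0638) and Kcnj2. Kcnk1 passed as lower with DESeq2 (-1.13) and in the authors' deposited table (-1.13), and with quantile normalisation (-1.42), where Kcnn1 (-0.78) and Kcnk13 (-2.77) passed too. Among the members with the widest changes with injury, the differences from sham were 0.21 ± 0.15 for Kcnc4, -0.18 ± 0.16 for Kcnip4, -0.21 ± 0.10 for Kcnd3, 0.04 ± 0.14 for Kcnab1 and -0.05 ± 0.12 for Kcnh2. These errors, not the missed threshold, set how near to sham the values are known to be.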

How the data were processed

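The authors deposited 3 tables, 1 per pair of groups, holding per gene each library's normalised read count (a signal on a linear scale) and a log2 fold change with raw and adjusted p-value. Per the values, each deposited column is whole reads divided by 1 factor per library and table; 100% of values came back as whole reads within 0.01 of a read. Per the submitters' processing notes the build was mm10, also called GRCm38. Neither aligner, counter nor strand setting, nor the authors' statistical tool, is stated (not given in the sources used here).

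For every comparison limma 3.58.1 (R 4.3.3) was run on its table, on log2(normalised count + 1), trended variance, group as the only term, two-sided, for genes with a mean of at least 10, with Benjamini-Hochberg adjustment over all genes tested and a threshold of 0.05. The design named this for normalised values. Fold changes on this scale understate low genes. Some low members, among them Kcnj5, Kcna3, Kcnmb4, Kcnj10 and Kcnh7, met the filter only through the group where they were high. Their p-values are no support separate from that filter. Levels were rescaled from the recovered reads with 1 median-of-ratios factor per library over 16750 genes. Exon lengths, positions and overlaps are from GENCODE release M21. Counting intervals (95%) and floors (3 reads over a group) cover counting error only. The fit was checked on simulated data.

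Members and gene lists were chosen with earlier results of these data known. The naming rule took 14 fixed members, up to 8 largest rises and 8 largest falls with a mean of at least 50 in injured against sham and in inhibitor-treated against injured arteries, and up to 10 members called against sham. Others are given to account for the members, and were named after their values were seen; a few genes, though counted, are not reported here by name. Replicate numbers were not taken to pair the samples, since no label says that they do. Alternatives covered pseudocount, filter, scaling, DESeq2 1.42.0, edgeR 4.0.16, the authors' table, a replicate block, all 9 libraries in 1 fit, sample weights and libraries left out.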

Additional observations from a re-analysis of the deposited data

How the results depend on the processing

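Counts of potassium channel genes called with injury and with the inhibitor against injured arteries kept their size under most alternatives, and the cause of the moves below was not tested, apart from filters and left-out libraries, which leave fewer genes or samples. With injury, a filter on a mean of 50 left 21 called, 9 of them higher, and 11 were higher both with quantile normalisation and with scaling on ribosomal protein genes, against 17. Sample weights, whose estimation stopped before its tolerance, called 9621 genes of the whole table with injury and 10651 between inhibitor-treated and injured arteries, against 6076 and 6099, and 28 members lower in the latter. There, 10 members were lower with the filter on 50, 11 with quantile normalisation and 10 with ribosomal scaling, against 17. Without the libraries that stand apart it called 15 members, 10 higher and 5 lower, and 3069 genes in all. Sample weights turned Kcnj11 in that comparison from 0.24 to -1.33, now past the threshold. Against sham, where Kcna3 was the only call, the counts were 2 with no filter (2 higher), 0 with the filter on 50 (0 higher), 5 with quantile normalisation (4 lower), 2 with ribosomal scaling (2 higher), 2 with DESeq2 (1 lower), 3 in the authors' deposited table (2 higher, 1 lower) and 2 without the libraries that stand apart (1 lower).

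Leaving out each library in turn gave 27 to 33 members called with injury (13 to 18 higher, 14 to 17 lower; 4350 to 7312 genes in all), 26 to 33 for inhibitor-treated against injured (14 to 18 higher, 12 to 16 lower; 4099 to 7938) and 1 to 2 against sham (1 to 2 higher, 0 to 1 lower; 518 to 822). With the replicate block, 30, 32 and 1 members and 5762, 5747 and 877 genes were called. Same-numbered libraries correlated at -0.07 to 0.21, over 0.1 in 2 of 9 pairs, so the numbers were not taken to pair the samples. With 3 libraries a group, low correlations cannot exclude a shared animal or batch. Low counts limit Kcnmb4, Kcnh7, Kcnj5 and Kcna3 in sham.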
